A study of Homo sapiens with 40 samples.

Results

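The transcript models of 7 genes for RNA-binding proteins that regulate splicing are described here: PTBP1, PTBP2, PCBP2, HNRNPR, HNRNPLL, RBM4 and KHDRBS1. They were taken by gene name from a catalogue of long-read transcript models, in which they held 28 of 19972 models and were 7 of 9460 genes. The catalogue comes from a study of how messenger RNA isoforms are translated while H9 human embryonic stem cells, an established line, turn into neural progenitor cells. The neural progenitor cells (NPC) had been differentiated by dual-SMAD inhibition, a block of the signalling branches that run through SMAD proteins, and the embryonic stem cells (ESC) were labelled as control. From both, heavy polyribosome mRNA (at least 5 ribosomes), light polyribosome mRNA (2 to 4), monosome mRNA and cytosolic mRNA were collected, and 16 long-read and 24 short-read libraries were made, 2 and 3 for each cell type and fraction. The models carry positions only, with no count per library, so NPC and ESC or the fractions are not compared, depth is unknown, and an isoform that has no model may still be expressed.

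PTBP1 and PTBP2 encode polypyrimidine tract binding proteins, which mostly repress exons. In neural development PTBP1 is replaced by PTBP2, and PTBP1 represses inclusion of an exon of PTBP2 that is needed for its full protein. HNRNPLL is a relative of these proteins known from the splicing of CD45 in lymphocytes, and PCBP2 is a poly(C)-binding protein with roles in splicing, stability and translation of mRNA. HNRNPR encodes a protein of nuclear and axonal RNA in motor neurons, RBM4 can act against PTBP1 at shared exons, and KHDRBS1 encodes Sam68, which controls exons of neurexin genes in neurons. Genes for splicing regulators are themselves often spliced in several ways, including forms that the cell degrades.

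All 7 genes had at least 2 models, as had 49.9% of all gene loci. PCBP2 had 8, HNRNPR and RBM4 had 5 each, HNRNPLL had 4, and PTBP1, PTBP2 and KHDRBS1 had 2 each. All 28 models had a coding region, as had 86.4% of all models. None of these regions began or ended within 2 nt of an end of its model, against 4.01% of all coding models. Summed over the genes there were 24 different coding regions but only 10 stop positions. Variation was therefore of different kinds: in PTBP1, PTBP2, PCBP2 and HNRNPR the protein differed inside or at its beginning with the stop in place, in RBM4 and HNRNPLL the end of the coding region also moved, and in KHDRBS1 the 3' untranslated region (UTR) differed behind an identical coding region. Of the 28 models 20 were longer than the median model of the catalogue, 1537 nt, and 24 had more codons than its median of 285. Codon numbers are the length of the deposited coding region divided by 3, its last codon included.

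**Figure D1:**
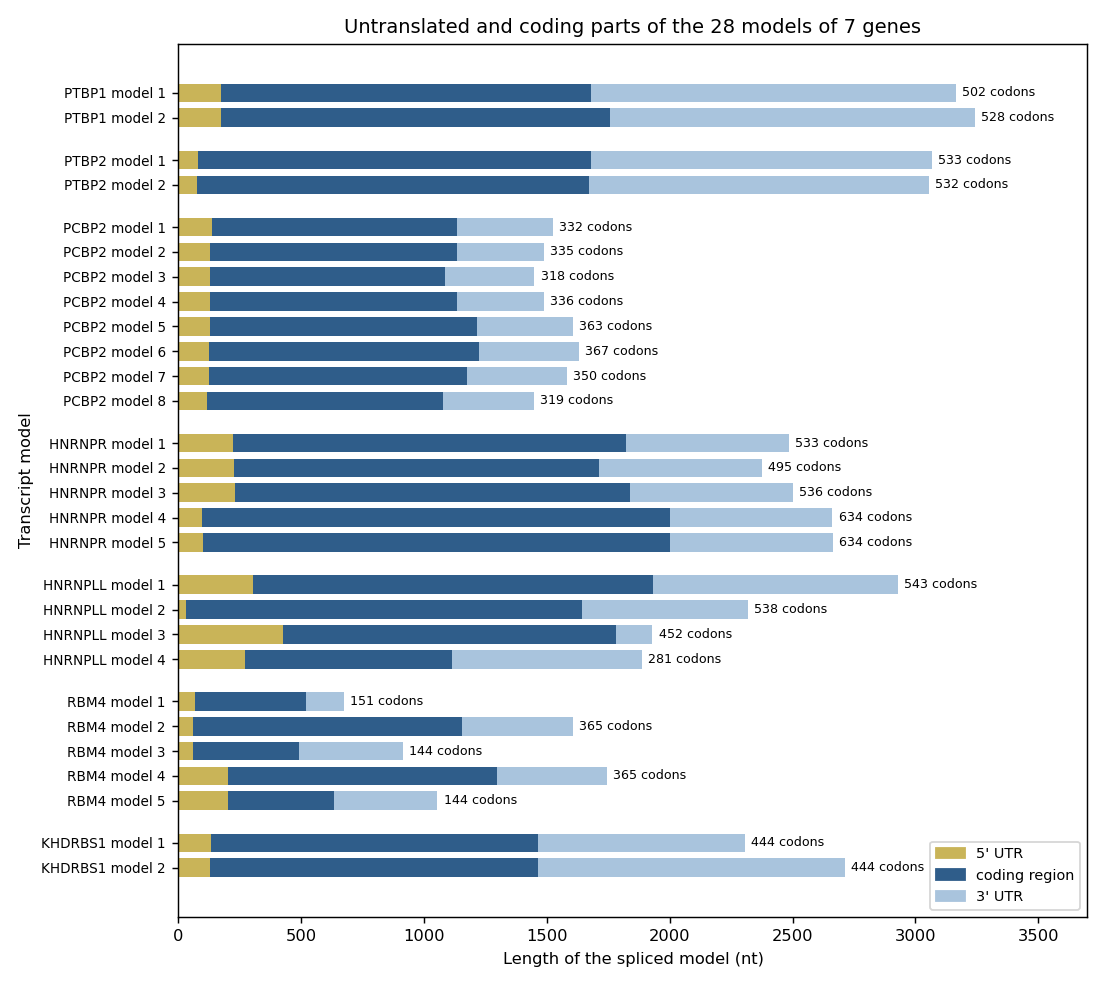
Length in nt (x axis) of the 5' UTR, the coding region and the 3' UTR of each of the 28 spliced models (y axis, numbered in file order within a gene), with the number of codons at the bar end. Coding regions run between 144 codons in RBM4 and 634 in HNRNPR, and the 3' UTRs of PTBP1 are 1486 nt in both models.

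No gene of the 7 had alternative first exons, meaning first exons that do not overlap, against 18.0% of the gene loci with at least 2 models. For 5 of the genes every model began inside the start-site window that RefSeq gives for the gene (250 bases before to 50 after its start, GRCh38.p14). The stretches around these starts are shown because they place the most upstream start of each gene at the level of bases: 70 bases before the first base of the most upstream model in lower case, then the first 30 bases of that model in capitals, all 5' to 3' on the strand of the gene.
PTBP1, chr19:797345-797444, plus strand: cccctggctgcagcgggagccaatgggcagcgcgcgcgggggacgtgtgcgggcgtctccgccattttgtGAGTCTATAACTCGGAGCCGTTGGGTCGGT
HNRNPR, chr1:23344269-23344368, minus strand: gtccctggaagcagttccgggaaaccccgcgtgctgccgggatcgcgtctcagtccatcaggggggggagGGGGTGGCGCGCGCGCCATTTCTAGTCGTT
HNRNPLL, chr2:38602899-38602998, minus strand: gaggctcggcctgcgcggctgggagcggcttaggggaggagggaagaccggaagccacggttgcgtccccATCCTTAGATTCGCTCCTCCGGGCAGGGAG
RBM4, chr11:66638628-66638727, plus strand: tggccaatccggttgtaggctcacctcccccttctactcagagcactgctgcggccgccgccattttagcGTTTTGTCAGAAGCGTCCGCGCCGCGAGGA
KHDRBS1, chr1:32013793-32013892, plus strand: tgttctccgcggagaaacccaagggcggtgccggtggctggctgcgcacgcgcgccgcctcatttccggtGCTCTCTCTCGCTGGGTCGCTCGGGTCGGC

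The 5 stretches held between 62.0% (RBM4) and 71.0% (KHDRBS1) G and C. Over the full 300-base windows the share was 54.0% in PTBP2 and 57.3% in RBM4, below the median of all windows, 58.7%. In the windows of the other genes it was above that median. Within a gene the models' first bases lay close together: both PTBP1 models began at the same base, and the first bases spanned 3 nt in KHDRBS1, 8 nt in RBM4, 12 nt in HNRNPR and 31 nt in HNRNPLL. The starts of HNRNPLL models 2, 3 and 4, at 38602897, therefore lie just past the printed stretch, which shows that of model 1. The letters CCAAT, read on both strands, occurred 5 times in the 300-base window of RBM4 and 2 times each in those of PTBP1, HNRNPR and HNRNPLL, and were not in those of PTBP2, PCBP2 and KHDRBS1 or in a further PTBP1 window downstream; 34.6% of all 35116 windows hold them. The letters TATAAA were in none of the windows of the 7 genes, and 11.5% of all windows hold them. The other two genes began elsewhere: the first base of the 8 PCBP2 models lay 212 to 232 nt downstream of RefSeq's start, and those of the PTBP2 models at -854 and -847 relative to it, upstream, so that RefSeq's window for PTBP2 fell inside the first intron of both models. No model began in the further PTBP1 window.

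PTBP1, on the plus strand of chromosome 19 from 797415 to 812312, had 2 models that differed by a single cassette exon, an internal exon present in one model and skipped in the other. This exon of 78 nt, from 805492 to 805569, is exon 9 of the longer model, adds 26 codons and keeps the reading frame. It encodes part of the linker between the second and the third RNA-binding domain, and its skipping is known to weaken repression by PTBP1. Model 2, with the exon, was 3243 nt long with 15 exons and 528 codons, and model 1, without it, 3165 nt with 14 exons and 502 codons. First base, last base, start, stop, 5' UTR (173 nt) and 3' UTR (1486 nt) were the same in both. An exon of 34 nt (exon 11 of model 2, from 807869 to 807902), whose skipping is known to shift the frame and mark the mRNA for decay, was present in both models.

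The deposited coding region of PTBP1 began in exon 3, at 803612, after 2 introns, and not in exon 1, where the usual start codon of PTBP1 lies. The end of the RefSeq window reaches into exon 1 and is shown because it holds the only ATG, in capitals, between the first base of the models and the end of the window.
PTBP1 exon 1, chr19:797472-797501, plus strand: tcccccgcgggtctgctctgtgtgccATGg

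This ATG begins at 797498, base 84 of the model, and 8 bases of exon 1 remain from it to the splice site. Along the spliced model it lies 90 nt, or 30 codons, upstream of the deposited start, in the same frame. Counted from it, the coding regions would hold 558 codons with the cassette exon and 532 without it. The sequences of exons 2 and 3 were not used here, so whether a stop codon lies between was not tested. The codon numbers of PTBP1 are therefore a property of the deposited start as well as of splicing.

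PTBP2, on the plus strand of chromosome 1 from 96721784 to 96814791, also had 2 models, which differed by the 3' splice site of the last exon. The last exon began at 96813273 in model 1 and 3 nt further downstream in model 2, which gave 533 and 532 codons, 1 codon apart. Model 1 was 3066 nt and model 2 was 3056 nt long, with 14 exons each, a 5' UTR of 81 and 74 nt, and the same 3' UTR of 1386 nt. The exon of 34 nt that PTBP1 is known to repress (exon 10, from 96806419 to 96806452) was present in both models. Whether PTBP1 represses it in the cells studied was not tested. No PTBP2 model with this exon skipped was found, and no PTBP2 model met the rule for decay candidates given below. The gene's longest intron in these models spanned 27830 nt, against 4117 nt in PTBP1.

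The exons of the paralogues could be laid side by side by length. Of the 12 internal exons of PTBP2 and the 13 of the longer PTBP1 model, 8 had the same length in the same order: 31, 76, 173, 111, 34, 93, 217 and 78 nt. The other 4 pairs were 147 nt in PTBP1 and 144 nt in PTBP2, 171 and 165 nt, 175 and 196 nt, and 149 and 140 nt. The remaining PTBP1 exon was the cassette exon of 78 nt, which had no counterpart in the PTBP2 models. In PTBP2 the deposited start lay in exon 1, at 96721865, again with 8 bases left to the splice site, and the place that corresponds to PTBP1's deposited start was again 90 nt downstream along the mRNA. The deposited starts of the paralogues thus sat at different places of a matching exon structure.

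**Figure D2:**
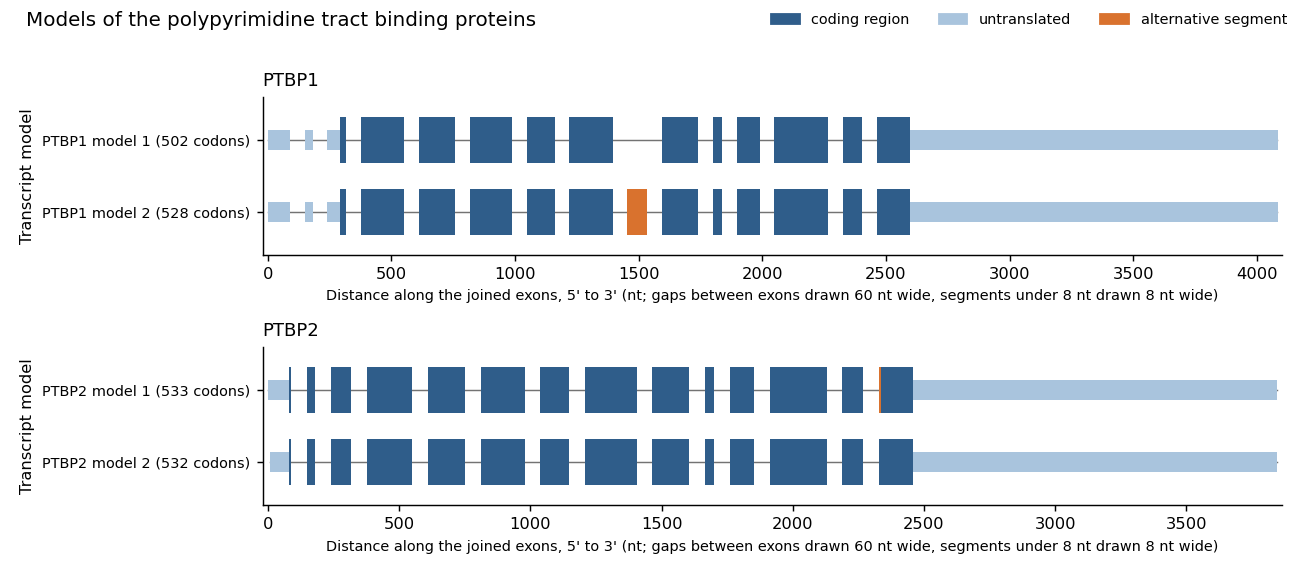
Models of PTBP1 and PTBP2 along their joined exons (x axis, nt, 5' to 3', gaps between exons drawn 60 nt wide; y axis, transcript model), with coding regions tall and dark, UTRs low and light, and alternative segments orange. The orange block in PTBP1 model 2 is the cassette exon of 78 nt, and the narrow one in PTBP2 model 1 the 3 nt at the last exon; the PTBP1 coding region begins in exon 3 and that of PTBP2 in exon 1.

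PCBP2, on the plus strand of chromosome 12 from 53452314 to 53479848, had the most models of the 7 genes, and every difference among its coding regions kept the reading frame. The 8 models shared the start (53454801, in exon 2) and the stop (53479442), and held 8 different coding regions of 318 to 367 codons. Of the 118 gene loci of the catalogue with at least 8 coding models, 22 (18.6%) had a different coding region in each, and 2 (1.69%), PCBP2 included, also had 1 start and 1 stop. There were 5 alternative segments, all coding and all divisible by 3: 3 cassette exons and 2 alternative 3' splice sites.

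The cassette exon of 93 nt (53464760 to 53464852, 31 codons) was present in 3 models. The cassette exon of 42 nt that follows it (53465932 to 53465973, 14 codons) was present in 7 and missing from model 3. The cassette exon of 39 nt (53467805 to 53467843, 13 codons) was present in 6 and missing from models 7 and 8. An alternative 3' splice site added 12 nt, or 4 codons (53462481 to 53462492), in models 2, 4 and 6. Another added 3 nt, or 1 codon (53468777 to 53468779), in each model but model 2. The 5 segments allow 32 combinations, of which 8 were found, each in 1 model.

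Model 6, with 367 codons and 1631 nt, held all 5 segments, which add up to 189 nt or 63 codons. Model 5 lacked only the 12 nt and had 363 codons, and model 7 lacked the 12 nt and the exon of 39 nt and had 350. The other 5 models skipped the exon of 93 nt. Among them model 4 had 336 codons, model 2, which used the shorter form of the 3-nt site, had 335, and model 1, without the 12 nt, had 332. Model 8 had 319 codons without the exon of 39 nt, and model 3 had 318 without the exon of 42 nt. Inclusion of the exon of 93 nt with skipping of that of 42 nt was not found, but only model 3 skipped the exon of 42 nt. Whether the choices at these exons are linked was not tested.

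The ends of the PCBP2 models varied over short distances: 5 different first bases spanned 20 nt and 5 different last bases spanned 53 nt, giving 5' UTRs of 118 to 138 nt and 3' UTRs of 353 to 406 nt behind the shared stop. These are ends of different isoforms, because no intron chain occurs in more than 1 model.

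**Figure D3:**
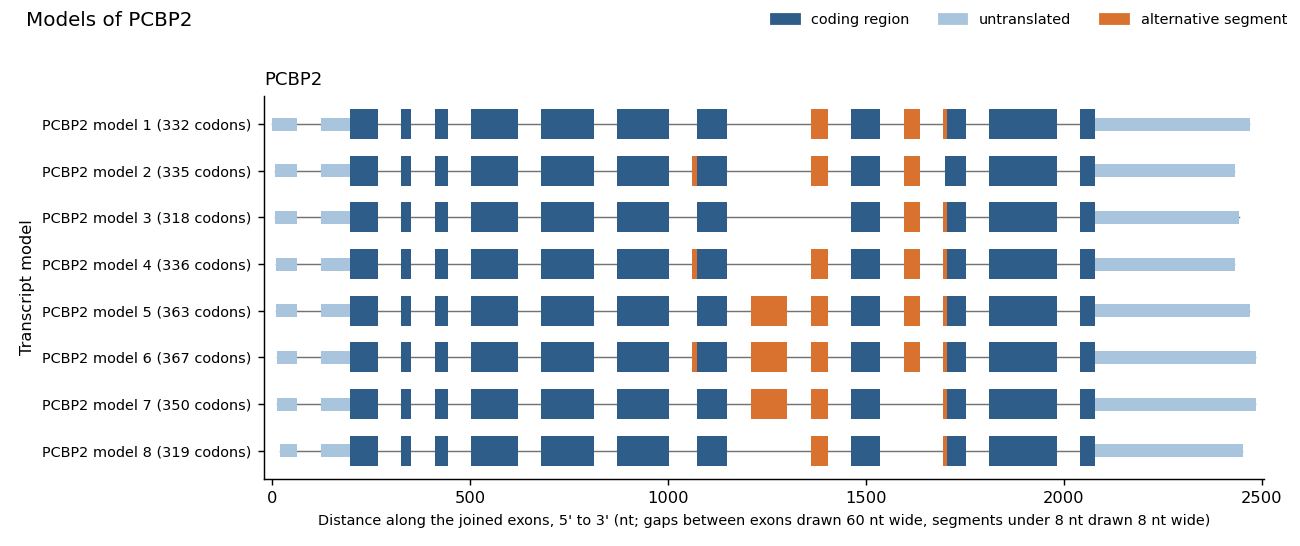
The 8 PCBP2 models along their joined exons (x axis, nt, 5' to 3', gaps drawn 60 nt wide, segments under 8 nt drawn 8 nt wide; y axis, transcript model with its codons); coding regions are tall and dark, UTRs low and light. The 5 alternative segments are orange, and each model shows a different set of them, with all 5 in model 6.

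HNRNPR, on the minus strand of chromosome 1 from 23309791 to 23344298, varied mainly at the beginning of its protein. Models 4 and 5 included an exon 2 that holds the start (at 23341008) and had 634 codons each. Models 1, 2 and 3 skipped it and began at 23337834, in their exon 3, with 533, 495 and 536 codons. The coding region of model 4 was 303 nt or 101 codons longer than that of model 1. Of these, 157 nt lay in exon 2, and the rest in the 2 exons behind it, which are in both models but lie before the start in model 1, wholly (119 nt) or in part. The N-terminal part of hnRNP R holds an acidic domain ahead of its RNA recognition motifs. Exon 2 measured 166 nt in model 4 and 169 nt in model 5, from an alternative 3' splice site 3 nt upstream (23341018 to 23341020) that lies in the 5' UTR, so these models shared their coding region.

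A cassette exon of 114 nt (23333518 to 23333631, 38 codons) was present in 4 HNRNPR models and missing from model 2, which had the fewest codons. An alternative 3' splice site added 9 nt, or 3 codons (23318689 to 23318697), in model 3 only. All 5 models ended at the same base, 23309791, and had the same stop (23310454) and a 3' UTR of 663 nt. Their 5' UTR measured 222, 226 and 229 nt where exon 2 was skipped (models 1, 2 and 3), and 97 and 100 nt where it was included (models 4 and 5). SYNCRIP, the paralogue that encodes hnRNP Q, had 9 internal exons in its model with the longest coding region, as had HNRNPR, and 8 of them had the same length in the same order: 119, 108, 114, 177, 136, 206, 150 and 122 nt. The exon of 114 nt was in this SYNCRIP model too, and no cassette exon was found among the 2 SYNCRIP models.

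HNRNPLL, on the minus strand of chromosome 2 from 38563186 to 38602928, differed at both ends of its coding region. The 4 models had 3 start positions, 2 stop positions and 4 coding regions of 543, 538, 452 and 281 codons. Model 1 had 13 exons in 2927 nt and began its coding region at 38602626, in exon 1. Model 2 spliced out an intron of 256 nt inside that exon (38602601 to 38602856), which holds the start of model 1. Its coding region began upstream of this intron, at 38602867, and was 5 codons shorter. This intron was kept in models 1, 3 and 4.

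Model 3 of HNRNPLL skipped the cassette exon of 119 nt (38591530 to 38591648), which was present in the other 3 models and is not divisible by 3. Its deposited start, at 38602472, lay 154 nt downstream of that of model 1 in the same exon, and its coding region was 273 nt or 91 codons shorter, with the same stop at 38564182. The distance of 154 nt is not divisible by 3 either, so the deposited starts of models 1 and 3 lie in different frames of exon 1. Exon 1 of model 3 also holds the start of model 1, from which the skipped exon would shift the frame. Where reading from that start would stop in model 3 was not tested. Model 4 had 6 exons and ended early: its last exon of 888 nt began as the internal exon of 73 nt of the other models and ran on for 815 nt into the intron. The coding region continued for 41 nt past the end of the exon of 73 nt, stopped at 38581872, and was 262 codons shorter than that of model 1. The 3 models with the shared stop ended at different bases, with 3' UTRs of 996 nt in model 1, 673 nt in model 2 and 148 nt in model 3, a spread of 848 nt. This was the widest spread behind a shared stop among the 7 genes.

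**Figure D4:**
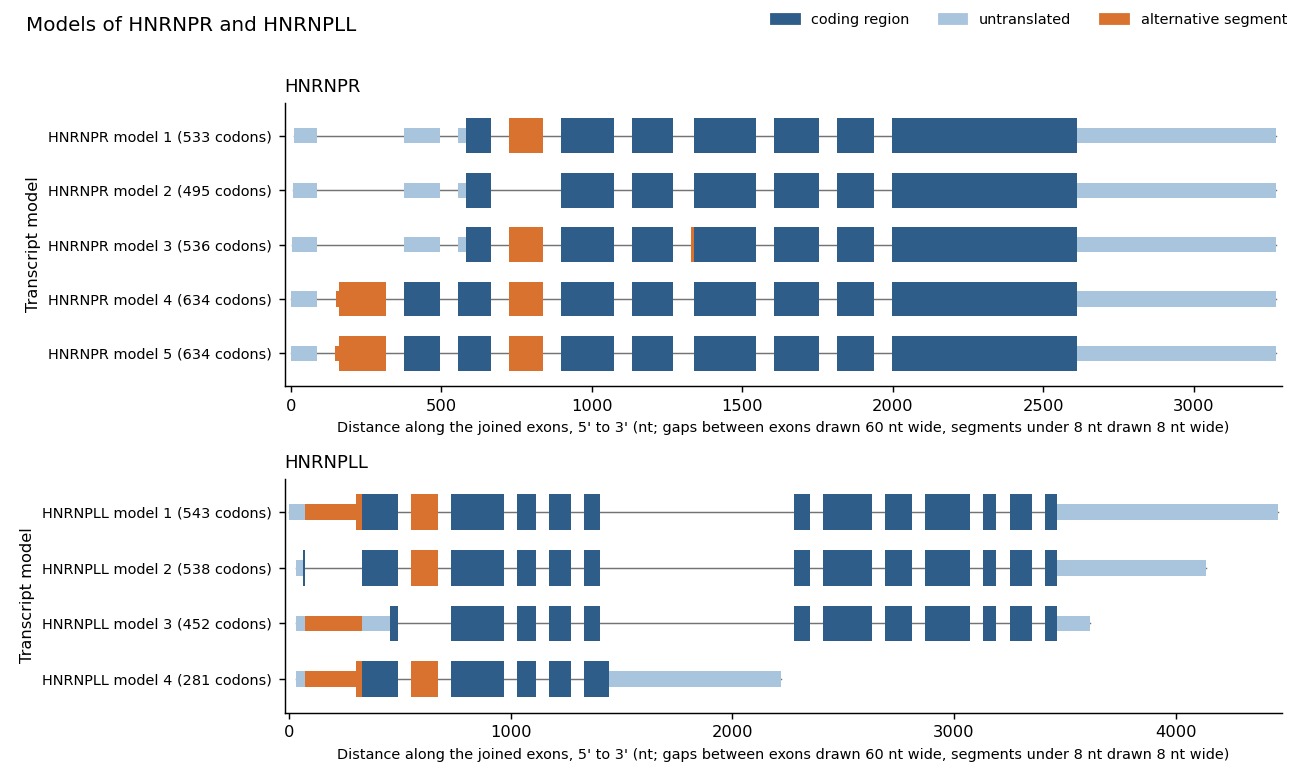
Models of HNRNPR and HNRNPLL along their joined exons (x axis, nt, 5' to 3', gaps drawn 60 nt wide; y axis, transcript model with its codons); coding regions are tall and dark, UTRs low and light, and alternative segments orange. In HNRNPR models 4 and 5 the coding region begins in the orange exon 2, and HNRNPLL model 4 ends with a last exon of 888 nt.

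RBM4, on the plus strand of chromosome 11 from 66638698 to 66649930, had a coding region of either 365 codons or at most 151. All 5 models shared the start (66639712) and the 412 coding nt of exon 2, which encode most of the region with the RNA recognition motifs. In models 2 and 4 a cassette exon of 691 nt (66643450 to 66644140) followed and held the stop (66644132), 8 nt before the exon's end, giving 365 codons. In models 3 and 5 it was skipped, and the coding region ran 20 nt into the last exon and stopped at 66646046 after 144 codons, 221 fewer. Model 1 joined exon 2 to another last exon of 195 nt (66649736 to 66649930), across an intron of 9612 nt, and stopped at 66649776 after 151 codons.

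The 5' UTR of RBM4 had a short and a long form that occurred with and without the cassette exon. An alternative 5' splice site of the first exon added 141 nt (66638753 to 66638893) in models 4 and 5, whose 5' UTRs measured 200 nt, while models 2 and 3 had 59 nt and model 1 had 67 nt. Long and short first exons were each seen with the 365-codon form and with the 144-codon form. The models measured 674, 1604, 913, 1745 and 1054 nt in file order.

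RBM4B, the neighbouring paralogue, held a similar pair of forms. Its model with 360 codons had the stop in a cassette exon of 677 nt (chromosome 11, 66668615 to 66669291), and the model without it had 144 codons, the same number as the short RBM4 form. The second exon measured 424 nt in both genes. A further RBM4B model with 2 exons had 152 codons. Reads of such close paralogues can be hard to tell apart, and the sources used here do not say how the authors assigned them.

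KHDRBS1, on the plus strand of chromosome 1 from 32013863 to 32060848, had 2 models with 1 coding region of 444 codons and different ends. One coding region in each coding model was found in 15.6% of gene loci with at least 2 coding models, and in KHDRBS1 alone among the 7 genes. The start (32013996) and stop (32042624) were shared, and so were the 8 introns between them. Model 2 ended in exon 9, which measured 1349 nt, with a 3' UTR of 1251 nt. Model 1 left that exon after 193 nt, 95 nt past the stop, and continued over introns of 2611 and 14772 nt into exons of 60 and 686 nt, with a 3' UTR of 841 nt. The last bases of the models lay 16973 nt apart.

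By the deposited coding regions, KHDRBS1 model 1 was the only candidate for nonsense-mediated decay among the 28 models. This decay pathway removes mRNAs in which an exon junction remains downstream of the stop, and a model was called a candidate when more than 50 nt separated its stop from the last junction downstream of it. In KHDRBS1 model 1 the distance was 155 nt. A candidate was called in 1 of the 7 genes and in 5.02% of the gene loci with a coding model. Over all genes the 541 candidate models had a median distance of 199 nt, and 221 were at or below 155 nt. RBM4 models 2 and 4 also had their stop before the last exon, but 8 nt from the junction, below the threshold, and in the other 25 models the stop lay in the last exon. The call is a rule on positions and not a measurement of decay.

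**Figure D5:**
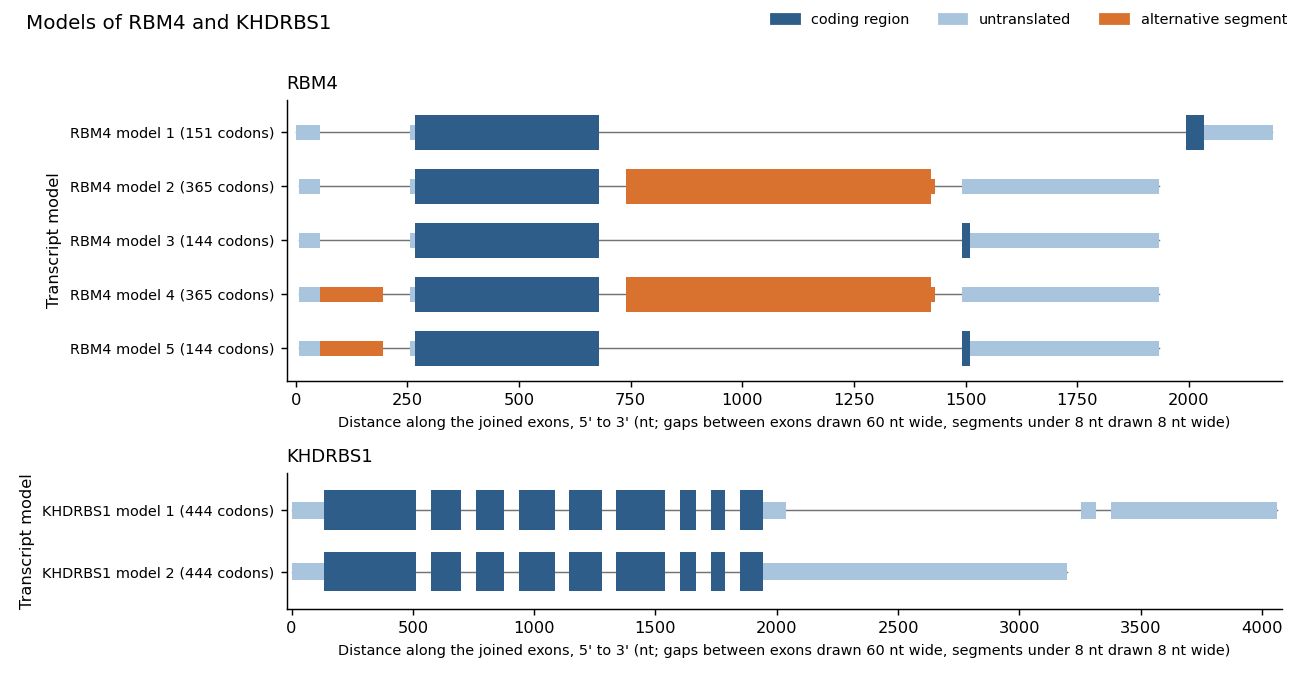
Models of RBM4 and KHDRBS1 along their joined exons (x axis, nt, 5' to 3', gaps drawn 60 nt wide; y axis, transcript model with its codons); coding regions are tall and dark, UTRs low and light, and alternative segments orange. The orange exon of 691 nt holds the stop of RBM4 models 2 and 4, and KHDRBS1 model 1 has 2 exons behind the exon with the stop.

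Across the 7 genes, 9 cassette exons were found in 5 genes, against 49.4% of gene loci with at least 2 models that had one. Of the 6 that were wholly coding, 5 had a length divisible by 3, of which 3 were in PCBP2 and the others in PTBP1 and HNRNPR. That of HNRNPLL did not. In the catalogue 44.1% of 2133 wholly coding cassette exons had such a length. The other 3 held a start (the forms of HNRNPR exon 2, counted apart) or a stop (RBM4). Alternative 3' splice sites numbered 5 in 3 genes (PTBP2, PCBP2 and HNRNPR), against 23.4% of gene loci with one. All 5 were apart by a multiple of 3, as were 48.4% of the 1518 alternative 3' splice sites of the catalogue, and 3 were 3 nt apart, as were 20.4%. The HNRNPR site of 3 nt lay in the 5' UTR, outside the coding region. Alternative 5' splice sites were found in RBM4 only (25.2% of gene loci) and retained introns in HNRNPLL only (17.3%).

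At the ends, alternative last exons were found in 3 of the 7 genes, HNRNPLL, RBM4 and KHDRBS1, against 27.0% of gene loci with at least 2 models. In 3 genes, PTBP1, PTBP2 and HNRNPR, every model ended at the same base, against 26.0% of these loci. At least 2 stop positions were found in 2 genes, HNRNPLL and RBM4, against 41.6% of gene loci with at least 2 coding models. At least 2 start positions were also found in 2 genes, HNRNPR and HNRNPLL, against 44.8%. With 7 genes that were chosen with earlier results known, these counts describe the genes and are no test against the catalogue.

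Of a list of 51 regulators of splicing, chosen for neural and related functions with earlier results known and including the 7 genes, 29 had a model. Among the other 44 listed genes, 22 had a model, and those without one could not be called. Of the 22, 12 had at least 2 models, against 49.9% of all gene loci. Of these 12, 5 had a cassette exon, against 49.4% of gene loci with at least 2 models. Among all 22, a decay candidate under the 50 nt rule was found in 0, against 5.02% of gene loci with a coding model. CELF4, whose model had no coding region, could not be called. PTBP3, the third polypyrimidine tract binding protein gene, had 2 models, PCBP4 6, SYNCRIP 2, RBM4B 3, and KHDRBS2 and KHDRBS3, which encode relatives of Sam68, 1 each. HNRNPL, HNRNPK, PCBP1 and PCBP3 had no model in the catalogue as used here.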

How the data were processed

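The authors deposited 1 file of long-read transcript models, which names PacBio as source and gives the first and last base (in nt, counted from 1) of every transcript, exon and coding segment. Per the labels' protocols, R2C2, a method that reads circular cDNA repeatedly, gave the long reads. Salmon 1.9.0 and STAR 2.7.8a stand in the submitters' processing notes, with no role given. Not given in the sources used here: the model builder, coding-region caller, filters, annotation, genome build and the libraries that entered. Long mRNAs may be missing or cut short: no model exceeded 5877 nt.

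Models were numbered in file order. A cassette exon was an internal exon that another model of the gene skipped by joining the same neighbouring splice sites. Background shares are over gene loci (gene, chromosome and strand). No test was run, since models are not replicates and no value per library was at hand. Start-site windows were RefSeq's (GRCh38.p14), matched by symbol for 7 of 7 genes. As a check that the build matches, 98.3% of 1210 first exons ending inside a window were followed by GT there, and 96.3% of 1567 coding starts inside a window were ATG. Scripts ran in Python 3.11.15 and were tested on hand-made models. The genes and lists were chosen with earlier results of these data known. Every model of the 7 genes is described, and of the longer list the nearest paralogues are named.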

Additional observations from a re-analysis of the deposited data

How the results depend on the processing

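Counts for the 7 genes moved in these settings. When both forms had to occur in 2 or more models, 3 of 9 cassette exons remained. PTBP1 with 2 models cannot meet this. The exons of 42 nt in PCBP2, 114 nt in HNRNPR and 119 nt in HNRNPLL dropped out because only 1 model skipped each. HNRNPR exon 2 dropped out because its forms in models 4 and 5, which differ by 3 nt, were counted apart. Models 1, 2 and 3 skipped it. With any junction downstream of the stop counted, decay candidates numbered 3 in place of 1, the added ones being the RBM4 models with 365 codons. With a distinct splice donor in place of no overlap, there were 2 alternative first exons in place of 0, in HNRNPLL and RBM4. With at least 2 models required, 19 listed regulators were counted in place of 29. Cassette exons stayed at 9 when any intron containing the exon counted as skipping, decay candidates at 1 with more than 55 nt or without coding regions near an end, coding regions at 24 and stops at 10 without such coding regions, and the widest 3' UTR spread at 848 nt with models of under 3 nt kept; alternative last exons numbered 4 in place of 3 by distinct splice acceptor. No paired analysis was possible because the models carry no value per library. Depth is unknown, so how completely these isoforms were sampled cannot be stated.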

Other observations

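PTBP3 on chromosome 9, a gene of the same family as PTBP1 and PTBP2, had 2 models of 525 and 453 codons. The longer coding region held a cassette exon of 170 nt (112275844 to 112276013) that the other model skipped, with its deposited start further downstream. This exon is not divisible by 3 and had no match in length among the internal exons of PTBP1 and PTBP2. Both PTBP1 and PTBP3 held internal exons of 78, 34, 93, 217 and 78 nt in this order, so that the length of PTBP1's cassette exon recurred in PTBP3. There it was not a cassette exon: the exon of 170 nt was the only one called between the PTBP3 models. PCBP4 on chromosome 3 had cassette exons of 83 and 148 nt in the 5' UTR and 1 of 129 nt in the coding region, and 6 of the 13 internal exons of its longest coding form matched PCBP2 in length and order.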
